A study of Drosophila melanogaster with 8 samples.

Results

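The control retina of Drosophila melanogaster is described here at 40 h after puparium formation, in the 4 libraries of the w[1118] stock out of 8 libraries in the study. The libraries were chosen by genotype, from the labels, and no measured value entered the choice. All came from female pupae aged at 25 °C, from stocks kept in 12:12 h light and dark cycles, and the RNA was selected for polyadenylated transcripts. The stock lacks a working white gene, so its eyes cannot load pigment precursors in the usual way. The other 4 libraries carry sev[14] and were not used, and no comparison of genotypes is made. Retinas were pooled, with 10 to 20 prepared for each genotype, and no label says that the libraries came from separate animals or days, so the spread between them may be in part technical. They are written W1, W2, W5 and W6, after their column names. Gene positions are on BDGP6, as deposited. The column names tie each library to the control group, not to a numbered replicate of it.

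The fly retina is a sheet of repeated units, the ommatidia. Each holds photoreceptors of the outer, R7 and R8 classes, cone cells that secrete the lens, and primary pigment cells, with further pigment cells and bristles between the units. In the middle of pupal life the cell types have been set and surplus cells have died, while photoreceptor axons connect in the brain, the apical membranes expand and the corneal lens begins to form. The light-gathering rhodopsins are known to appear late in pupal life.

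The level of a gene is used below on a per-length scale: the deposited normalized count divided by the exonic length, scaled so that the 15064 genes with a level sum to 1000000 in each library. Values are means ± SD over the 4 libraries (n = 4) unless each library is given. A gene is called on at a level of 1 or more in all 4 libraries and off at a level under 1 in all 4. For a gene of 2 kb, a level of 1 stood for 12.9 to 16.1 reads, depending on the library. The total of reads was 17129012 (W1), 15102718 (W2), 14123264 (W5) and 13755813 (W6). W1 was the deepest, yet it had the fewest genes above 0, 10235, against 10645 to 11347 in the others. No test was run, because there is no contrast within the control group. An exact comparison of 2 genes over 4 libraries could not go below p = 0.125, 2-sided, so order is described by how many libraries show it and whether the ranges overlap.

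Of the 15064 genes, 8657 (57.5%) were on, 4765 (31.6%) were off and 1642 lay between. Counts of genes on or off in the lists and families below stand beside these shares of all genes. A level of at least 10 in all 4 libraries was reached by 6656 genes (44.2%) and a level of at least 100 by 1260 (8.36%). The median level was 7.84 over all genes and 34.5 over the genes that were on. The 152 genes with a mean level of 1000 or more made up 1.01% of genes and 43.8% of the summed level. By share of reads the libraries were spread over many genes: the top 10 genes held 5.66% ± 0.475 of the reads, the top 100 held 23.8% ± 0.787, and 537 genes together reached 50% of them.

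**Figure D1:**
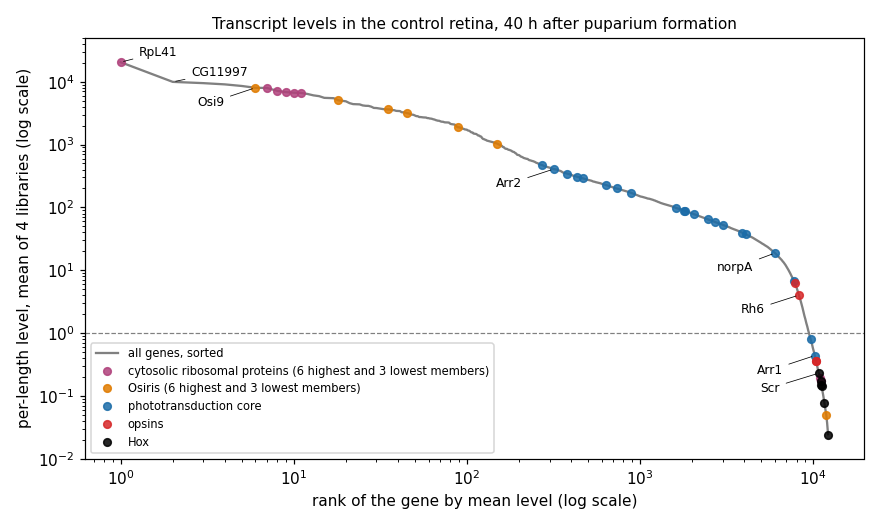
Mean per-length level of every gene of the control retina against its rank, both axes on log scales, with members of 5 gene groups as coloured points; genes with a mean under 0.01 are not drawn. RpL41 leads at 20446, most phototransduction genes lie between 18.8 (norpA) and 471 (Cam), and the Hox genes lie below the dashed line at level 1.

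The transcripts that took the most reads came from the cytoskeleton, the apical extracellular matrix, translation and a few genes without a known role. The alpha-tubulin gene alphaTub84B (FBgn0003884, 3R 7086599 to 7088839) took 0.695% (W1), 0.649% (W2), 0.784% (W5) and 0.918% (W6) of reads, the highest mean share of any gene. CG11997 (FBgn0037662, 3R 9177517 to 9179098), which has no role known from its name, came next with 0.754% (W1), 0.754% (W2), 0.677% (W5) and 0.735% (W6). It was also the steadiest of the leading genes, with a CV of 3.05% in normalized counts between libraries. Then came ImpL1 (0.564 ± 0.0894% of the reads), a gene first found as ecdysone-inducible in imaginal discs, CG32354 (0.548 ± 0.167%), the Osiris gene Osi9 (0.521 ± 0.106%) and the elongation factor gene Ef1alpha48D (0.517 ± 0.0491%). The beta-tubulin gene betaTub56D took 0.490 ± 0.0744%, Osi7 0.467 ± 0.0911%, the odorant-binding protein gene Obp44a 0.446 ± 0.0939% and the chitinase gene Cht5 0.379 ± 0.167%. The tubulin, Osiris and chitinase shares were lowest in W2, and Cht5 varied most of these, at a level of 2949 (W1), 1811 (W2), 4597 (W5) and 5679 (W6). Pseudogenes of ribosomal RNA were also among the largest shares, the highest being 28SrRNA-Psi:CR45859 at 0.617 ± 0.317%. The ribosomal RNA genes and pseudogenes together held between 1.09% (W6) and 3.67% (W5) of the reads and were left out of the per-length scale.

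Per length, ribosomal protein genes filled much of the top of the list. RpL41, which encodes the smallest ribosomal protein, had the highest level, 16118 (W1), 38609.9 (W2), 14556 (W5) and 12498 (W6), with W2 well above the rest. Its exons add up to 320 bases, and the level of so short a gene depends strongly on fragment length. CG11997 (9939 ± 623), ImpL1 (9488 ± 1570.0), alphaTub84B (9065 ± 1689.9), Obp44a (8554 ± 1349) and Osi9 (8006 ± 1845) followed. The lowest library of RpL41 was above the highest of CG11997, while from CG11997 to Osi9 the ranges of neighbours overlapped. Of 88 cytosolic ribosomal protein genes and paralogs, 85 were on, with a median level of 2530.3. The 3 that were off are paralogs: RpS10a (0.192), RpS19b (0.170) and RpL22-like (no reads). The share of reads held by the family was, in percent, 9.75 (W1), 13.8 (W2), 10.1 (W5) and 9.70 (W6). All 14 translation factor genes were on, each at a level of at least 100. Ef1alpha48D, at 4378 ± 639, was 3.16 times as high as its paralog eEF1alpha2, and higher in 4 of 4 libraries.

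Isoforms of the cytoskeleton were used very unequally. The alpha-tubulin alphaTub84B stood at a level of 9065 ± 1689.9 and its near relative alphaTub84D at 188 ± 49.2, a ratio of 44.7 to 53.3 between libraries. These genes are close copies, so reads could be split between them. The maternal alphaTub67C was off at 0.309, as was the ovarian gammaTub37C (0.0191). Among beta-tubulins, betaTub56D (5464 ± 946) exceeded betaTub60D (678 ± 193) in 4 of 4 libraries, while the testis isoform betaTub85D was at 2.68. The cytoplasmic actins Act5C (2253 ± 392) and Act42A (685 ± 105) kept a ratio of 3.13 to 3.52 in the 4 libraries, and actin genes too are close copies. The flight muscle actin Act88F behaved otherwise, with levels of 133 (W1), 4.05 (W2), 1089.5 (W5) and 20.9 (W6), and without W5 its mean was 52.8.

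Genes of the apical matrix and lens were prominent. The Osiris family encodes small membrane proteins of insects, named for a cluster on chromosome arm 3R and known in flies for roles in shaping cuticle. Of its 23 members with a level, 17 were on and 6 off, and 13 stood at 100 or more in every library. Osi9 (FBgn0037416, 3R 6260211 to 6262105) reached 7802 (W1), 5696 (W2), 8346 (W5) and 10179 (W6). The next, Osi4, had 5639 (W1), 3857 (W2), 4948 (W5) and 5894 (W6), lower than Osi9 in 4 of 4 libraries although the ranges over libraries overlapped. The cluster holds 21 of the genes between 6173549 and 6341424 on 3R (BDGP6), a span of 168 kb, and neighbours there differed sharply. Osi13 (118) and Osi16 (545) were on, while Osi14 (0.287) and Osi15 (0.0504) between them were off. At the end with the highest coordinates Osi18, Osi19 and Osi20 were all off. Osi10 has no per-length level, because its identifier has no exon model in the annotation used. As a percentage of reads the family held 2.02 (W1), 1.68 (W2), 1.94 (W5) and 2.52 (W6).

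In the corneal lens and chitin list, 17 of 18 genes were on, with a median level of 87.7. Cht5, a secreted chitinase, led at 3759 ± 1716, followed by the lens cuticle gene Cpr66D (1146 ± 301), the chitin-binding gene obst-B (643 ± 144) and the chitin synthase gene kkv (334 ± 60.8). The gut chitin synthase gene Chs2 was off (1 read in all 4 libraries). The lens genes retinin (26.5 ± 6.47) and Cpr72Ec (3.04 ± 2.06) were far below Crys, which encodes crystallin, a major lens protein, at 202 (W1), 125 (W2), 247 (W5) and 313 (W6). Of the zona pellucida genes, whose products line apical surfaces, 11 of 12 were on. The highest were dyl at 1349.9 ± 452 and tyn at 1101 ± 274, against 170.0 ± 63.6 for mey and 108 ± 62.3 for dy. The lowest were cyr (13.5 ± 12.4, or 7.76 without W5), qsm (6.38 ± 3.37) and zye (0.00550). Over the members that were on, both lists were lower in W2 than the 4-library mean, with a median log2 deviation of -0.57 for the lens list and -0.97 for the zona pellucida list. Over all genes that were on, the median deviation in W2 was -0.15. Of 89 cuticle protein genes of the CPR type, 19 (21.3%) were on and 51.7% were off. Over all genes 57.5% were on and 31.6% off. Cpr66D, Cpr49Ah (217), Cpr72Ea (213) and Cpr49Ae (133) led the CPR genes. Of 27 Tweedle and Vajk cuticle genes 6 (22.2%) were on and 66.7% were off, with TwdlE at 517 ± 149.

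Markers of the retinal cell types were checked against the label. All 11 genes of the photoreceptor and neuronal identity list were on, at a median level of 118. The adhesion protein gene chp (chaoptin, FBgn0267435, 3R 31204180 to 31210730), an early photoreceptor surface marker, had levels of 315 (W1), 225 (W2), 304 (W5) and 545 (W6), with W6 the highest and W2 the lowest. The photoreceptor homeobox gene Pph13 stood at 130.3 (W1), 133 (W2), 153 (W5) and 136 (W6), and the libraries lay close together. The zinc finger gene gl (glass), needed for photoreceptor identity, was at 118 ± 31.1, the pan-neuronal RNA-binding protein gene elav at 62.1 ± 12.3, the homeobox gene oc (orthodenticle) at 35.6 ± 6.76 and the axonal adhesion gene Fas2 at 253 ± 42.8. The remaining members were nSyb (129 ± 13.4), fne (119 ± 66.7), onecut (59.2 ± 14.8), futsch (53.8 ± 26.7) and scrt (38.2 ± 11.2). Of these, fne was higher in W1 and W2 than in W5 and W6, and futsch was highest in W5.

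Genes that distinguish photoreceptor classes ranged from above 100 to 0. For R8, the ligand gene boss (bride of sevenless, FBgn0000206, 3R 25961994 to 25966948), which R8 presents to the R7 precursor, had levels of 131 (W1), 93.1 (W2), 124 (W5) and 196 (W6). Its receptor gene sev was at 3.90 (W1), 5.11 (W2), 5.91 (W5) and 4.72 (W6), and boss was higher in 4 of 4 libraries, by 18.2 to 41.5 times. The R8 selector gene sens was barely on, at 2.33 (W1), 1.47 (W2), 1.26 (W5) and 1.60 (W6). The R8 targeting genes caps and gogo stood at 88.1 ± 14.8 and 34.4 ± 8.70, and the R8 subtype gene melt at 19.8 ± 7.79. For R7, the transcription factor gene pros, also in the cone cell list below, had levels of 26.5 (W1), 20.2 (W2), 21.8 (W5) and 9.0003 (W6), with W6 below the others. The transcription factor gene run, made in R7 and R8, was at 2.34 (W1), 1.62 (W2), 0.246 (W5) and 1.30 (W6), so it was not on by the rule, with W5 under 1. The subtype selector ss was low in every library at 1.15 to 1.66, whereas dve and dpr11 stood at 41.7 ± 17.4 and 70.4 ± 12.3. In whole tissue the levels of dve and dpr11 cannot be assigned to R7 alone. Of the outer photoreceptor genes, B-H1 (24.2 ± 6.06) was higher than B-H2 (12.7 ± 2.44) in 4 of 4 libraries. The nuclear receptor gene svp was at 18.1 (W1), 17.6 (W2), 20.8 (W5) and 19.4 (W6) with little spread, and the homeobox gene ro at 2.76 (W1), 0.801 (W2), 1.12 (W5) and 2.19 (W6), under 1 in W2. The ninaE gene was not analysed here. In these whole-tissue libraries a low level from few cells of a type and one from little RNA per cell cannot be told apart.

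**Figure D2:**
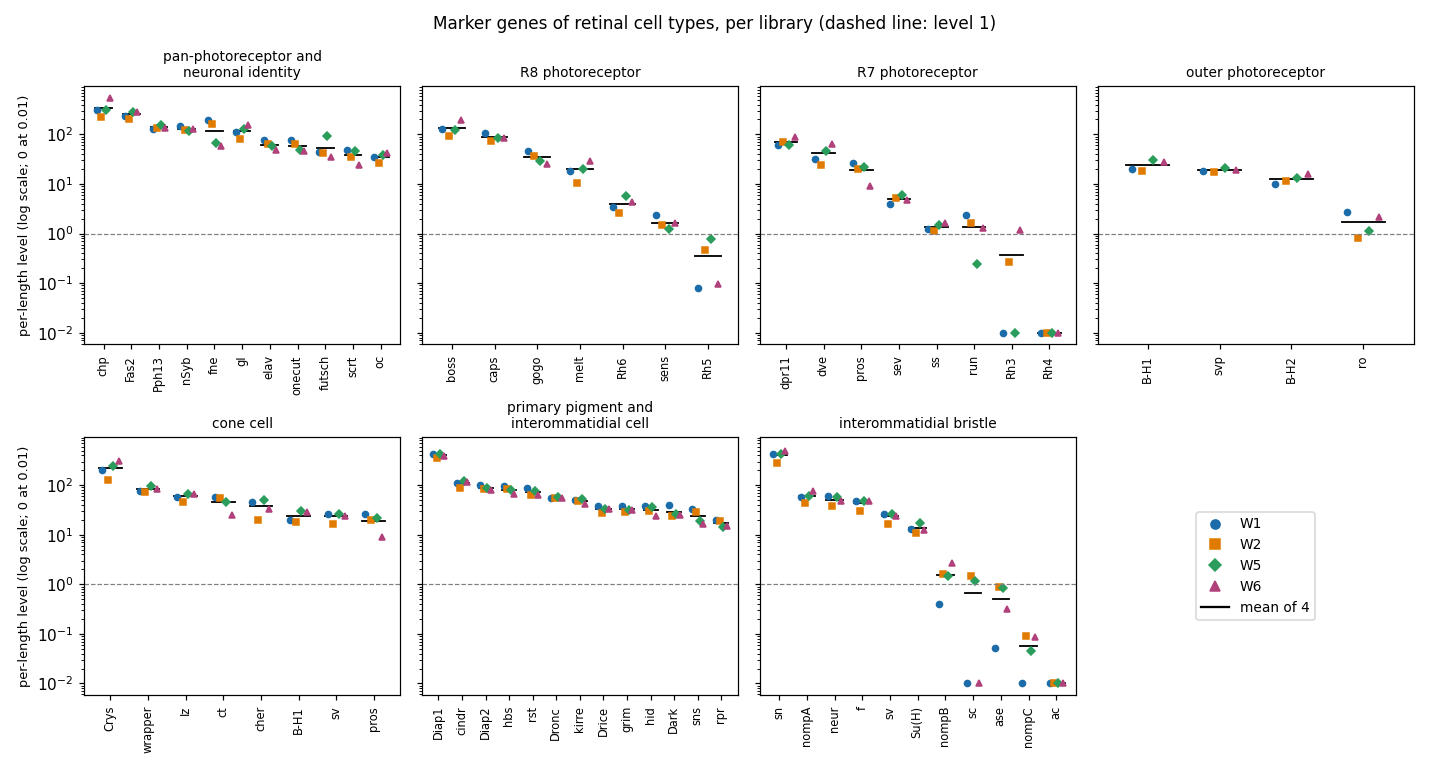
Per-length level of each marker gene in the 4 control libraries (coloured points; log scale, values of 0 drawn at 0.01) with the mean as a black bar, 1 panel per cell type list. All genes of the photoreceptor identity, cone cell, and pigment and interommatidial cell lists lie above the dashed line at level 1. The last of these lists includes cell death genes. Rh4 and ac are at 0 in every library.

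All 8 genes of the cone cell list were on. Crys led at a level of 222 ± 78.9, followed by wrapper, a gene for a surface protein of the immunoglobulin family, at 77.3 (W1), 71.3 (W2), 97.7 (W5) and 83.8 (W6). wrapper is also a glial gene and counts in the glia list below. The transcription factor genes lz (59.6 ± 9.37), ct (45.5 ± 14.5) and sv (23.5 ± 4.56), which act in cone cell development, lay below. The levels of ct were 57.1 (W1), 54.4 (W2), 45.3 (W5) and 25.0 (W6), lowest in W6. The filamin gene cher was at 37.5 ± 13.7. The list also holds pros and B-H1, given above with the R7 and outer photoreceptor genes. Their levels cannot be assigned to a single cell type and are not taken as a sign of cone cells.

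The pigment and interommatidial cell list was on in full, 13 of 13. It holds the adhesion genes that sort these cells and the cell death genes that remove the surplus. The nephrin-like genes hbs (81.4 ± 11.6) and sns (24.2 ± 7.77) and their partners rst (72.0 ± 11.04) and kirre (48.2 ± 4.72) were all present, as was the adaptor gene cindr (109 ± 15.95). The level of hbs exceeded that of sns in 4 of 4 libraries. Among death regulators, the inhibitor gene Diap1 (FBgn0260635, 3L 16038410 to 16051034) stood far above the rest, at 432 (W1), 357 (W2), 422 (W5) and 390.2 (W6). Diap2 was at 88.0 ± 8.05. The caspase genes Dronc (55.4 ± 1.49) and Drice (33.5 ± 4.26) and the adaptor gene Dark (28.4 ± 7.23) lay at moderate levels. The killer genes grim (32.6 ± 4.30), hid (32.2 ± 6.55) and rpr (17.3 ± 2.86), whose products block Diap1, lay between 17.3 and 32.6 on average. Exons of grim and Dark overlap those of other genes over 75.9% and 56.9% of their bases, so part of their counts may belong to a neighbour.

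Of the 11 bristle genes, 6 (54.5%) were on, 3 (27.3%) were off and 2 lay between. These shares were close to those of all genes, 57.5% on and 31.6% off. The actin-bundling fascin gene sn (singed) had levels of 418 (W1), 282 (W2), 432 (W5) and 495 (W6), and f (forked), which also bundles bristle actin, 43.3 ± 8.78. The genes nompA (60.1 ± 13.5), neur (51.3 ± 10.6) and Su(H) (13.5 ± 2.85) were on. The proneural genes sc (0.663), ase (0.515) and ac (no reads) and the mechanosensory channel gene nompC (0.0558) were at or near 0, and nompB was at 1.55 ± 0.942. The genes sn and f, which shape the bristle shaft, lay far above the proneural genes sc, ase and ac. In the same list neur was above f in 4 of 4 libraries, and nompB and nompC lay far below f.

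Transcripts of the 6 opsin genes measured were scarce. The opsin list also names ninaE, which was not analysed here, so nothing is said of its level. Rhodopsins are the light receptors of the photoreceptors, each made in its own class of cells. Of 6 opsin genes measured, 2 were on, 3 were off and 1 lay between (57.5% of all genes were on). Rh6 (FBgn0019940, 3R 15483158 to 15484699), an opsin of R8 cells, had read counts of 38 (W1), 30 (W2), 52 (W5) and 40 (W6), giving levels of 3.43 (W1), 2.65 (W2), 5.72 (W5) and 4.30 (W6). Rh7, which also has a role outside the main photoreceptors, was at 9.996 (W1), 5.48 (W2), 5.43 (W5) and 3.81 (W6), highest in W1. Rh5, the other R8 opsin, had 16 reads in all 4 libraries (95% Poisson interval 9.15 to 26.0), against 160 for Rh6 (136 to 187). Rh6 was higher than Rh5 in 4 of 4 libraries. The R7 opsin gene Rh3 had 14 reads in total, with none in W1 or W5. Its mean level was 0.366, and 0.0894 without W6. That of Rh5 was 0.360, and 0.217 without W5. No read fell on Rh4, the other R7 opsin, or on Rh2, the opsin of the ocelli. A count of 0 allows up to 3 reads over the 4 libraries, a level of up to 0.0775 for Rh4 and 0.0765 for Rh2. Intervals and floors cover counting error only.

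Most genes of the machinery that acts on the opsins were on: 19 of 21 phototransduction genes were on, with a median level of 88.1, and 7 stood at 100 or more in every library. In this cascade rhodopsin activates a Gq protein, which activates phospholipase C and opens the TRP channels. The eye Gbeta gene Gbeta76C had levels of 326 (W1), 379.8 (W2), 299 (W5) and 379 (W6). Its partners Ggamma30A and Galphaq were at 89.0 ± 26.1 and 88.1 ± 11.1, the latter with 44.1% of its exonic bases shared with other genes. The phospholipase C gene norpA was much lower, at 23.2 (W1), 18.6 (W2), 20.8 (W5) and 12.6 (W6), with W6 lowest. The main channel gene trp (FBgn0003861, 3R 29914521 to 29920289) stood at 327 (W1), 219.7 (W2), 246 (W5) and 367 (W6). Its relative trpl was off, at 0.978 (W1), 0.702 (W2), 0.835 (W5) and 0.661 (W6), and the ratio of trp to trpl was 295 to 555.

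Arrestins end the response by binding active rhodopsin, and their levels also split. Arr2 (FBgn0000121, 3L 8647261 to 8648936) had levels of 322 (W1), 247 (W2), 392 (W5) and 669.6 (W6), highest in W6. Arr1 was off, with levels of 0.513 (W1), 0.502 (W2), 0.375 (W5) and 0.367 (W6) and 32 reads in all (95% Poisson interval 21.9 to 45.2). The ratio of Arr2 to Arr1 lay between 493 and 1827. The scaffold and kinase genes of the signalling complex were on: inaC, the eye protein kinase C, at 237 (W1), 179 (W2), 322 (W5) and 495 (W6), inaD, the scaffold, at 136 (W1), 95.0 (W2), 165 (W5) and 290.3 (W6), and ninaC, a myosin with a kinase domain, at 166 (W1), 131 (W2), 205 (W5) and 298 (W6). These 3 genes and Arr2 were all highest in W6 and lowest in W2. Cam (calmodulin) was at 471 ± 65.4, the rhodopsin kinase gene Gprk1 at 97.4 ± 12.9 and the TRP-associated inaF-B at 227 ± 81.4. The rhodopsin chaperone gene ninaA (78.1 ± 13.9) and inaF-B share 100% and 86.6% of their exonic bases with other genes, so their counts are uncertain.

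Lipid cycling genes of the cascade lay in the middle of the range. The diacylglycerol kinase gene rdgA (39.6 ± 7.74), the phosphatidylinositol transfer gene rdgB (37.4 ± 5.38) and the phosphatase gene laza (52.6 ± 9.43) were on. So were the rhodopsin phosphatase gene rdgC (64.97 ± 22.8) and stops (58.9 ± 16.3). The sodium-calcium exchanger gene Calx, at 12.2 (W1), 8.73 (W2), 3.71 (W5) and 2.63 (W6), was higher in W1 and W2 than in W5 and W6, whereas Arr2 and inaC were higher in W5 and W6.

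**Figure D3:**
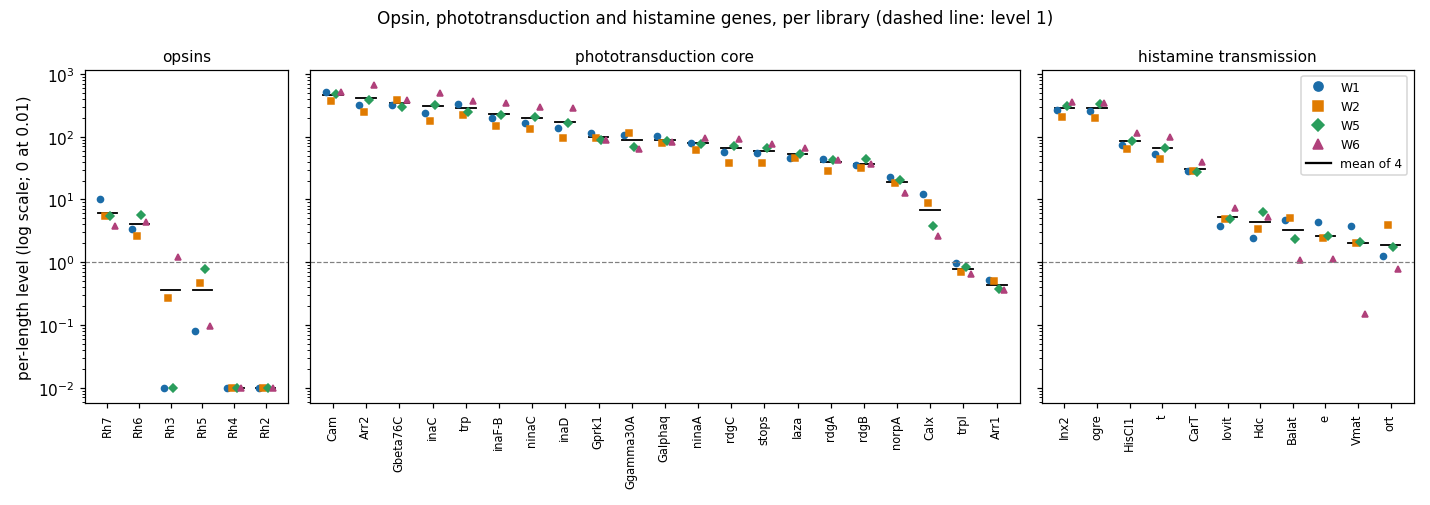
Per-length level of opsin, phototransduction and histamine genes in the 4 control libraries (coloured points; log scale, values of 0 drawn at 0.01) with the mean as a black bar. Means of phototransduction genes run from 471 for Cam down to 0.439 for Arr1. The means of the 6 opsin genes measured, without ninaE, lie at 6.18 (Rh7) or below.

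Of the chromophore genes, which supply the retinal bound by rhodopsin, 6 of 8 (75%) were on, beside 57.5% of all genes. The retinol dehydrogenase gene rdhB (FBgn0038946, 3R 22351696 to 22356264) of pigment cells stood out at 3444 (W1), 3828 (W2), 3161 (W5) and 3207 (W6), among the highest levels in the retina (rank 41 of 15064). Next were ninaG (60.3 ± 23.3), the carotenoid-cleaving ninaB (36.7 ± 13.8) and the scavenger receptor gene santa-maria (25.8 ± 4.27). At the low end were ninaD (4.50 ± 3.61, or 2.74 without W1), Rdh (0.491, with 0 reads in W1) and Pdh (0.286, off, and 0.0534 without W5). All 19 rhabdomere and apical membrane genes were on, with a median level of 98.0. The beta-catenin gene arm (878 ± 128), Rab11 (436 ± 31.8), chp and Moe, the moesin gene (333 ± 61.9), led. The lowest were the polarity gene baz (25.2 ± 7.73), WASp (29.2 ± 3.63) and par-6 (52.6 ± 10.04). The prominin gene prom had levels of 179.7 (W1), 123 (W2), 214 (W5) and 307 (W6) and its partner eys, of the space between rhabdomeres, 92.2 (W1), 74.4 (W2), 79.3 (W5) and 116 (W6).

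Histamine is the transmitter of fly photoreceptors. Its synthesis gene Hdc was low, at 2.39 (W1), 3.41 (W2), 6.31 (W5) and 5.30 (W6), and the recycling gene e (ebony), which acts in glia, was at 4.45 (W1), 2.45 (W2), 2.61 (W5) and 1.11 (W6). The enzyme gene t (tan), which frees histamine in photoreceptors, was higher than e in 4 of 4 libraries, at 53.4 (W1), 43.5 (W2), 65.5 (W5) and 100.6 (W6). Of the 2 histamine-gated channel genes, HisCl1 stood at 74.5 (W1), 64.1 (W2), 87.0 (W5) and 113 (W6) and ort at 1.24 (W1), 3.86 (W2), 1.72 (W5) and 0.771 (W6). The mean of ort was 1.897, and 1.24 without W2. The carrier gene CarT was at 31.1 ± 5.84, and lovit, needed to load histamine into vesicles, at 5.21 ± 1.44. The gap junction genes Inx2 (283 ± 62.7) and ogre (283 ± 69.7), also placed in this list, were the highest, with ranges that overlapped.

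All 27 synaptic vesicle and active zone genes were on, at a median level of 52.4. The Munc18 gene Rop had levels of 191 (W1), 175 (W2), 171 (W5) and 195 (W6), and Csp, a vesicle chaperone gene, 136 ± 10.2. The vesicle protein gene nSyb was at 147 (W1), 121 (W2), 117 (W5) and 130.2 (W6). The active zone scaffold gene brp was at 144 (W1), 126 (W2), 139 (W5) and 102 (W6). The lowest were the vesicular transporters of other transmitters, VGAT and VAChT, and Rbp (19.9 ± 4.93). The levels of VGAT were 21.9 (W1), 27.0 (W2), 10.9 (W5) and 8.91 (W6), and those of VAChT 33.7 (W1), 27.5 (W2), 17.2 (W5) and 9.25 (W6). Both transporters were higher in W1 and W2 than in W5 and W6. Neighbours in the order of levels overlapped for 26 of 26 pairs in this list.

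Most genes of surface proteins for axon guidance and partner choice were also on, beside 57.5% of all genes. The counts were 31 of 32 in the targeting list, 21 of 21 dpr genes and 10 of 11 DIP genes. On in full were the beat (14 of 14), side (8 of 8) and nicotinic receptor subunit genes (10 of 10). Fas2 (253 ± 42.8), Fas3 (219 ± 37.7), Nrg (180.1 ± 18.8) and the netrin receptor gene fra (178 ± 22.4) led the targeting list. The netrin gene NetA (1.44 ± 0.681), CadN2 (7.46 ± 5.42) and Toll-6 (7.92 ± 4.44) were lowest. N-cadherin, CadN, needed by photoreceptor axons, had levels of 145 (W1), 135 (W2), 182 (W5) and 109 (W6). The immunoglobulin genes dpr7 (197 ± 67.4), dpr21 (113 ± 51.8), dpr9 (71.8 ± 8.001) and dpr11 (70.4 ± 12.3) led the dpr family, with a family median of 22.6. Their DIP partners were lower, with a median of 9.08 and DIP-eta highest at 25.2 (W1), 27.2 (W2), 8.08 (W5) and 7.09 (W6). DIP-iota had no reads. In the beat family beat-IIb led at 124 ± 19.9, and among receptors nAChRalpha7 at 270.5 ± 37.4. Over the members that were on, W1 and W2 lay above and W5 and W6 below the 4-library mean in the dpr, DIP, beat, side and nicotinic receptor families. For DIP genes the median log2 deviations were 0.55 (W1), 0.54 (W2), -0.76 (W5) and -1.11 (W6). Markers of optic lobe and brain neurons moved the same way, with 0.46, 0.33, -0.54 and -0.94 in the same order, and their part in these levels was not tested.

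Eye pigment genes were on in 15 of 16 cases (93.8%, beside 57.5% of all genes). Fly eyes hold brown ommochromes, made from tryptophan, and red pteridines. The pteridine enzyme gene cl (clot) had levels of 814 (W1), 939 (W2), 897 (W5) and 829 (W6) with little spread. The ommochrome gene cd (cardinal) was at 771 (W1), 631 (W2), 666 (W5) and 1025 (W6), and the transporter genes bw (brown) and st (scarlet) at 661 ± 156 and 411 ± 89.4. Their shared partner w (FBgn0003996, X 2790599 to 2796466), the gene mutated in w[1118], was off in all libraries, at 0.756 (W1), 0.476 (W2), 0.329 (W5) and 0.836 (W6). The early ommochrome genes cn (232 ± 66.5, with 68.7% of its exonic bases shared with other genes) and v (200.1 ± 21.3) were on, and the xanthine dehydrogenase gene ry (1.62 ± 0.825) and the pteridine gene se (6.72 ± 3.12) were low. All 15 pigment granule trafficking genes were on. The Rab gene of these granules, Rab32, led at 559 (W1), 444 (W2), 614 (W5) and 784 (W6), with p (181 ± 15.8), cm (79.6 ± 6.09) and or (74.5 ± 7.95) next and Dysb (12.7 ± 4.18), car (18.2 ± 2.55) and dor (29.0 ± 6.45) lowest.

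The Sevenless, EGFR and Ras pathway was on in full, 30 of 30 genes, with a median level of 40.6. The EGFR ligand gene spi stood at 372 (W1), 309.8 (W2), 360.3 (W5) and 373 (W6), and the ligand gene Krn at 59.3 ± 13.6. The ligand genes vn (6.13 ± 1.95) and grk (5.69 ± 2.55) were among the lowest of the list, with sev (4.91 ± 0.835). Egfr itself was at 35.6 ± 9.10. Among the transducers, Ras85D and the repressor gene ttk (96.7 ± 21.2) were highest, and Ras85D was even between libraries at 118 (W1), 133 (W2), 127 (W5) and 121 (W6). Of the Notch list 14 of 22 genes (63.6%) were on, close to the 57.5% of all genes. The glycosyltransferase gene fng was at 149 ± 20.2, N itself at 57.3 ± 18.9, the ligand gene Delta at 10.4 ± 4.28 and Ser at 5.55 ± 0.624. Within the E(spl) complex of Notch targets, a run of 10 measured genes over 43.4 kb on 3R (25997621 to 26041008), levels ran from none to E(spl)m3-HLH at 79.1 (W1), 68.4 (W2), 97.5 (W5) and 95.6 (W6). E(spl)mbeta-HLH (53.6 ± 7.65), E(spl)m2-BFM (28.6 ± 3.25) and E(spl)m7-HLH (4.33 ± 3.18) were the other members on. E(spl)m5-HLH had no reads, and E(spl)m6-BFM (0.137) and E(spl)m8-HLH (0.198) were off.

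Of 20 morphogen and receptor genes, 17 (85%) were on, beside 57.5% of all genes. Stat92E (71.7 ± 11.1), fz2 (63.8 ± 18.3), fz (59.6 ± 9.63) and put (58.9 ± 7.88) led. The ligand genes hh (33.0 ± 7.40), wg (30.1 ± 9.69) and dpp (11.6 ± 3.88) were present, while the JAK/STAT ligand genes upd1, upd2 and upd3 had no reads in any library. All 16 cadherin genes, 11 irre-module and septate junction genes and 13 basement membrane genes were on. Cals (169.6 ± 25.8) and Cad96Ca (144 ± 34.1) were the highest cadherins with CadN, and Cad88C (6.95 ± 2.06) the lowest. Nrx-IV (231 ± 33.5) and cora (228 ± 33.5), of the septate junction, led the irre-module list. SPARC, which encodes a collagen-binding matrix protein, had 306 (W1), 292 (W2), 333 (W5) and 316 (W6), and Ndg (nidogen) only 14.3 (W1), 23.4 (W2), 8.995 (W5) and 3.80 (W6).

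The steroid hormone ecdysone drives metamorphosis through a cascade of transcription factors. Of its response genes, 22 of 26 (84.6%) were on, beside 57.5% of all genes. The nuclear receptor genes Hr4, Eip75B and Eip78C were highest, each with W5 above the other libraries and W6 the lowest. Hr4 (FBgn0264562, X 1941940 to 2007956) had levels of 282 (W1), 248 (W2), 351 (W5) and 212 (W6). Those of Eip75B were 213 (W1), 154 (W2), 218 (W5) and 142 (W6), and those of Eip78C 198 (W1), 159 (W2), 224 (W5) and 139 (W6). The competence factor gene ftz-f1, in contrast, was at 1.48 (W1), 1.69 (W2), 3.19 (W5) and 1.38 (W6). The early gene br (broad) lay around the threshold at 1.47 (W1), 0.738 (W2), 1.23 (W5) and 0.479 (W6), and Kr-h1, a juvenile hormone target, had a level of 0.0540 (0.00950 without W2). Hr4 exceeded br by 192 to 443 times between libraries. ImpE1 was at 154 ± 49.2, Hr3 at 135 ± 19.9 with 61.8% of its exonic bases shared with other genes, and Eip93F at 86.7 ± 18.7. The gene shd, whose product makes the active hormone from ecdysone, was at 0.842 (W1), 1.52 (W2), 0.975 (W5) and 0.702 (W6), above 1 in W2 alone.

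Genes of retinal fate were still on: 15 of 16 in the retinal determination list. The levels of eya were 235 (W1), 174 (W2), 301 (W5) and 349 (W6), and the next were emc (179 ± 26.4), Optix (150.4 ± 18.5) and toy (66.7 ± 9.38). ato, the proneural gene that founds R8 in the larva, was off with reads in W1 only (a level of 0.727). tsh (2.96 ± 0.430) and eyg (4.78 ± 2.18) were low. Of the factors that set inner photoreceptor subtype and dorsal-ventral specialisation, 10 of 11 were on: exd (106 ± 8.02), wts (32.6 ± 7.28), hth (19.7 ± 6.20), salr (12.0 ± 5.51) and salm (8.21 ± 3.63) among them. The lowest were ss (1.38 ± 0.237) and run (1.38 ± 0.871), with ranges that overlapped.

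Of 35 cell cycle genes 23 (65.7%, beside 57.5% of all genes) were on, 3 were off and 9 lay between. Their median level was 3.75, against 7.84 over all genes. The gene fzr, whose product drives cyclins to destruction in resting cells, led at 73.0 (W1), 64.9 (W2), 69.8 (W5) and 79.0 (W6), followed by Cdk1 (62.3 ± 10.3), Top2 (50.2 ± 7.85) and E2f1 (49.2 ± 9.40). The cyclin-dependent kinase inhibitor gene dap was at 23.5 ± 2.75. The lowest were the mitotic genes cid (0.224), Klp61F (0.271), aurB (0.445) and polo (0.584) and the replication gene Mcm5 (0.444, or 0.127 without W1). The level of fzr was 96.1 to 222 times that of polo. Of 12 clock genes 10 (83.3%, beside the same 57.5%) were on, led by vri (199 ± 40.0) and cyc (129 ± 16.7). Levels were 6.81 ± 2.46 for per and 17.4 ± 3.58 for tim. Clk stood at 0.562 (W1), 0.633 (W2), 4.76 (W5) and 0 (W6), with a mean of 0.398 without W5. The light sensor gene cry was at 39.8 (W1), 26.8 (W2), 161 (W5) and 48.5 (W6), highest in W5, and its mean without W5 was 38.4.

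Most genes of the housekeeping complexes were on (57.5% of all genes were on). The genes off among them included named copies of the main subunits. The respiratory chain and ATP synthase genes held, in percent of reads, 0.948 (W1), 1.17 (W2), 1.03 (W5) and 1.10 (W6), with 65 of 85 genes on, led by ATPsynC (1223 ± 213) and ND-MLRQ (1158 ± 355). No reads fell on ND-49L, ND-20L or COX6AL, named as copies of ND-49, ND-20 and COX6A. Of 48 proteasome genes 34 (70.8%) were on, led by Prosalpha1R (477 ± 22.2), which has a near-identical neighbour and is uncertain, and Prosbeta5 (429.8 ± 39.8). Of 31 vacuolar ATPase genes 19 (61.3%) were on, close to the share of all genes, led by Vha16-1 (532 ± 66.8). Another 12 (38.7%) were off, against 31.6% of all genes. All 73 mitochondrial ribosomal protein genes were on, from 31.8 to 349. Glycolysis genes, led by Gapdh2 (340.0 ± 59.0) and Eno (318 ± 58.0), were on in 14 of 16 cases, with Ald2 and Hex-C off. Small heat shock genes were high without any heat treatment on the labels: Hsp26 at 1681 ± 139 and Hsp23 at 1553 ± 375, beside the constitutive Hsc70-4 at 1631 ± 304, while Hsp70Ba had no reads. The other 4 measured copies of the inducible Hsp70 gene were on, the highest being Hsp70Ab at a mean level of 59.3, and as near-identical copies they are uncertain. GstD1, a glutathione transferase gene, stood at 3801 (W1), 3423 (W2), 3631 (W5) and 3966 (W6). Of 33 tetraspanin genes 22 (66.7%) were on, with Tsp42El (763 ± 46.6) and Tsp42Ej (628 ± 45.9) highest. Of 82 cytochrome P450 genes 34 (41.5%) were on, led by Cyp301a1 (309.8 ± 81.1), known in flies for a role in cuticle formation. Of 15 antimicrobial peptide genes 7 (46.7%) were on. Drs (drosomycin) had the highest level of these, 319.6 (W1), 199 (W2), 71.2 (W5) and 52.4 (W6), with W1 the highest and W6 the lowest.

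At the other end lay gene families of other organs and stages. None of the 8 Hox genes, which pattern the body axis outside the eye field, was on, and all 8 were off (31.6% of all genes were off). Scr was the highest at 0.0277 (W1), 0.625 (W2), 0.203 (W5) and 0.0661 (W6), and pb and Dfd had no reads. Chemoreceptors were nearly silent: 1 of 55 odorant receptor genes (Or43b, 5.96), 1 of 55 gustatory receptor genes (Gr21a, 2.45) and 3 of 62 ionotropic receptor genes (Ir62a was the highest, at 5.05, or 3.27 without W1) were on. Digestive proteases of the Jonah and trypsin families had 0 of 25 on, chorion and vitelline membrane genes 0 of 14, and seminal fluid genes 1 of 27 (Acp32CD, 4.10). Of 19 testis and accessory gland genes analysed, 2 were on, bol (18.95 ± 6.74) and betaTub85D (2.68 ± 1.16). Of 19 early patterning genes 3 were on, slp1 (52.8 ± 8.59), slp2 (24.2 ± 4.81) and gt (2.86 ± 1.18), and eve, ftz, cad and bcd had no reads. Odorant-binding protein genes had a larger share on than the chemoreceptors, 10 of 45 (22.2%), but well below the 57.5% of all genes, and 53.3% were off. A few of them were high. Obp44a (FBgn0033268, 2R 8134170 to 8135315), at 8977 (W1), 10019.5 (W2), 8434 (W5) and 6787 (W6), was among the highest levels of the retina.

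**Figure D4:**
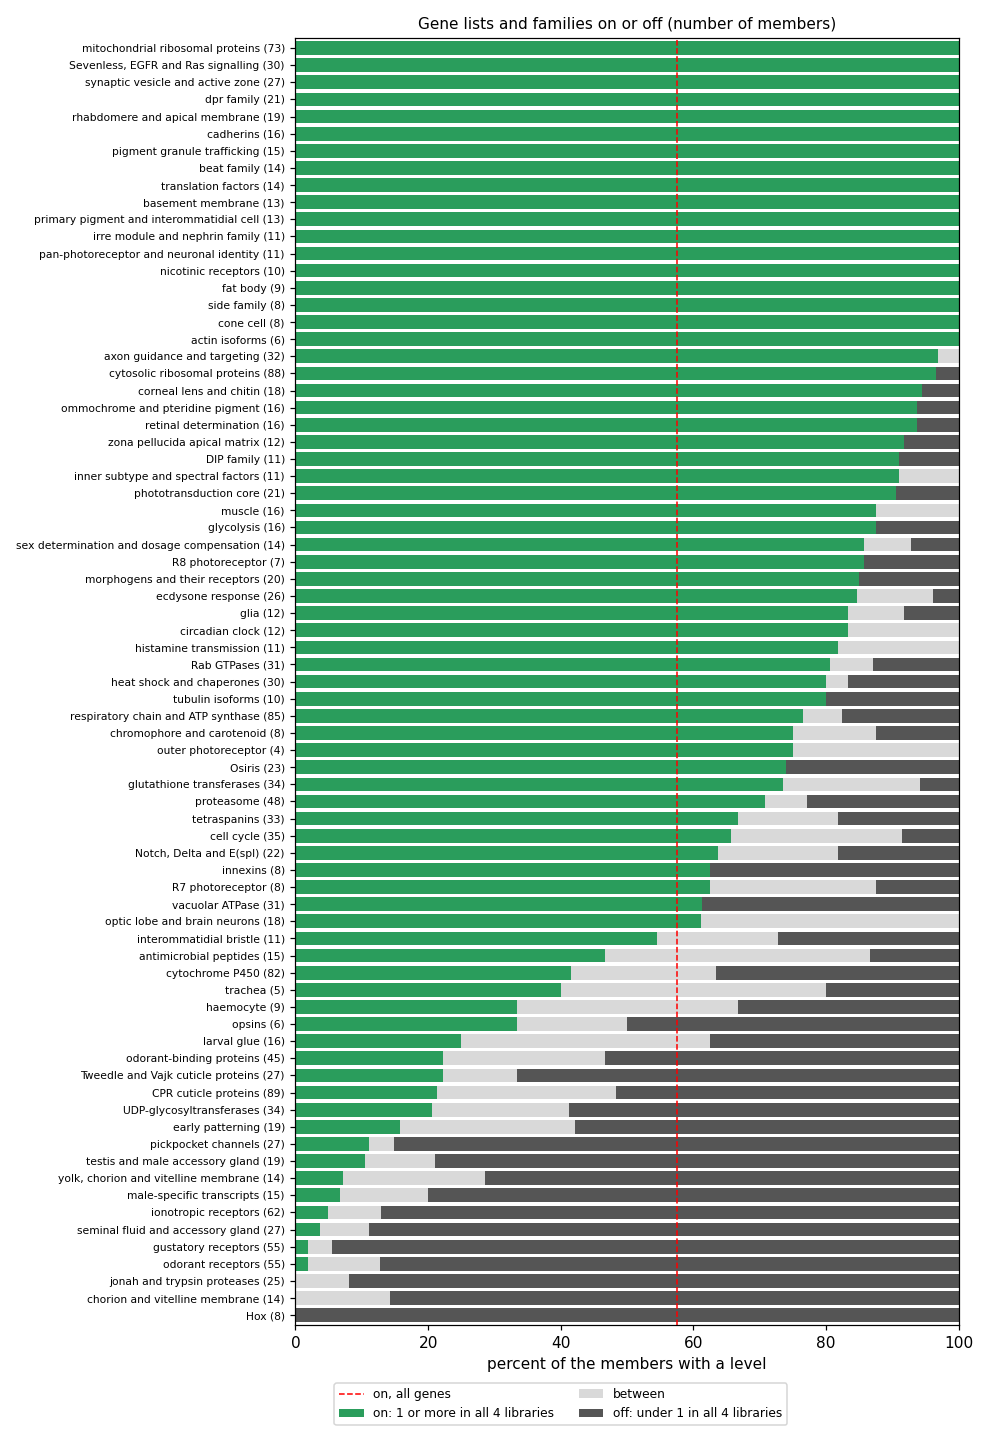
Share of the members of each gene list or family that were on (green), between (light grey) or off (dark grey) in the control retina, with the number of members in brackets. The dashed red line at 57.5% is the share of all genes that were on; Hox genes, chorion genes and digestive proteases have no green part.

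Genes of sex determination and dosage compensation were examined beside the female label. Sxl was at 69.5 ± 7.32, tra at 47.7 ± 4.89 and msl-2 at 24.4. These gene totals do not separate splice forms, so they do not bear on the label. The level of roX1, an RNA of male dosage compensation, was 0.902. The other such RNA, roX2, had no reads. All entries of the Y chromosome together held 22 (W1), 16 (W2), 21 (W5) and 49 (W6) reads. Of the 7 Y genes with a level, 1 was on. By arm, the share of genes on ranged from 52.5% on 2L to 61.8% on X, with 78.3% of the 106 genes on chromosome 4. The median level of the genes on was 34.5 for X and 33.2 to 34.8 for the arms of chromosomes 2 and 3, and 69.0 for chromosome 4. Noncoding RNA genes were on less often, 161 of 1705 (9.44%), than protein-coding genes (64.1%). The highest noncoding RNA was lncRNA:CR42862 (FBgn0262109, 3L 224106 to 230964), at 1518 (W1), 1225 (W2), 920.0 (W5) and 825 (W6).

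Dissected tissue can carry other cells, so their markers were examined. Of 12 glial genes 10 (83.3%) were on, beside 57.5% of all genes. The glial selector repo was at 88.3 (W1), 92.0 (W2), 138 (W5) and 101.3 (W6) and Mdr65 at 215 (W1), 173 (W2), 284 (W5) and 277 (W6). The level of nrv2 was 152 ± 18.98, while gcm was off. Glia are also found at the base of the retina itself. All 9 fat body genes were on: the larval serum protein gene Lsp2 had 738 (W1), 898 (W2), 485 (W5) and 388 (W6), with 84.6% of its exonic bases shared with other genes. Obp99b had 1465 (W1), 1449.7 (W2), 803 (W5) and 578 (W6), and Fbp1 462 (W1), 525 (W2), 325 (W5) and 235 (W6). Their summed level was 3106 (W1), 3321 (W2), 1915 (W5) and 1424 (W6). Of the muscle genes 14 of 16 were on, with Mhc at 74.2 (W1), 9.65 (W2), 146 (W5) and 5.81 (W6) and Mlc2 at 109 (W1), 55.9 (W2), 261 (W5) and 15.4 (W6), and a summed level of 704 (W1), 318 (W2), 2004 (W5) and 114 (W6), highest in W5 and lowest in W6. Without W5 the mean of Mhc was 29.9, against 58.9 with it. Of 18 optic lobe and brain neuron genes 11 (61.1%) were on, close to the 57.5% of all genes. The summed level of this list was 309 (W1), 304 (W2), 184 (W5) and 149 (W6), with VGlut at 67.3 (W1), 70.7 (W2), 33.6 (W5) and 24.2 (W6) and bsh at 19.6 (W1), 22.5 (W2), 25.9 (W5) and 20.9 (W6). Of 9 haemocyte genes 3 were on: crq (83.9 ± 9.86), Sr-CI (7.49 ± 2.34) and srp (7.29 ± 1.34), whereas the defining markers Hml (1.18), NimC1 (0.628), eater (0.374) and He (no reads) were low. The crystal cell genes PPO1 and PPO2 came almost wholly from W2. The levels were 0 (W1), 13.6 (W2), 0.265 (W5) and 0.518 (W6) for PPO1, and 0 (W1), 17.0 (W2), 0.339 (W5) and 0 (W6) for PPO2. Of 5 tracheal genes verm (78.1 ± 31.6) and serp (34.003 ± 13.7) were on, which are chitin genes too, while btl (0.748), trh (1.25) and dysf (0.0956) were near or under 1. How far these cells contribute to the levels of genes given above was not tested.

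Between libraries the median CV of the normalized counts was 16.3% over 8279 genes whose mean normalized count reached 50. The quartiles were 10.5% and 24.9%, and counting alone would give a median of about 3.98%. Only 31 of these genes had an SD above their mean. Of them 15 were highest in W5, 11 in W1, 5 in W2 and 0 in W6. The 12 with the highest CV, included PPO2, PPO1 and Act88F, given above. The first was pre-mod(mdg4)-B, at 12.6 (W1), 0 (W2), 0 (W5) and 0 (W6), with 94.4% of its exonic bases shared with other genes. spok, which encodes a P450 of ecdysone synthesis, had 1.72 (W1), 0.703 (W2), 59.2 (W5) and 0 (W6) and the nuclear receptor gene Hr38 0.742 (W1), 0.0484 (W2), 8.94 (W5) and 0.0785 (W6), both mostly from W5. The level of frm was 6.15 (W1), 0.242 (W2), 0.201 (W5) and 0 (W6), and that of CG4757 was 11.9 (W1), 1.54 (W2), 0.811 (W5) and 0.144 (W6), both led by W1. CG4631 had 0 (W1), 1.02 (W2), 9.68 (W5) and 0 (W6), SmydA-5 2.37 (W1), 1.92 (W2), 21.3 (W5) and 1.53 (W6) and CG13144 4.00 (W1), 0.320 (W2), 15.6 (W5) and 0.876 (W6), all led by W5. The neuropeptide gene Mip had 25.4 (W1), 0.623 (W2), 0.997 (W5) and 6.502 (W6). Except for PPO1 and PPO2, which came from W2, each of the 12 was highest in W1 or in W5. Without its highest library the mean of spok was 0.809, of Hr38 0.290, of frm 0.148, of CG4631 0.342 and of CG4757 0.832. That of SmydA-5 was 1.94, of CG13144 1.73, of Mip 2.71, of PPO1 0.261 and of PPO2 0.113.

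**Figure D5:**
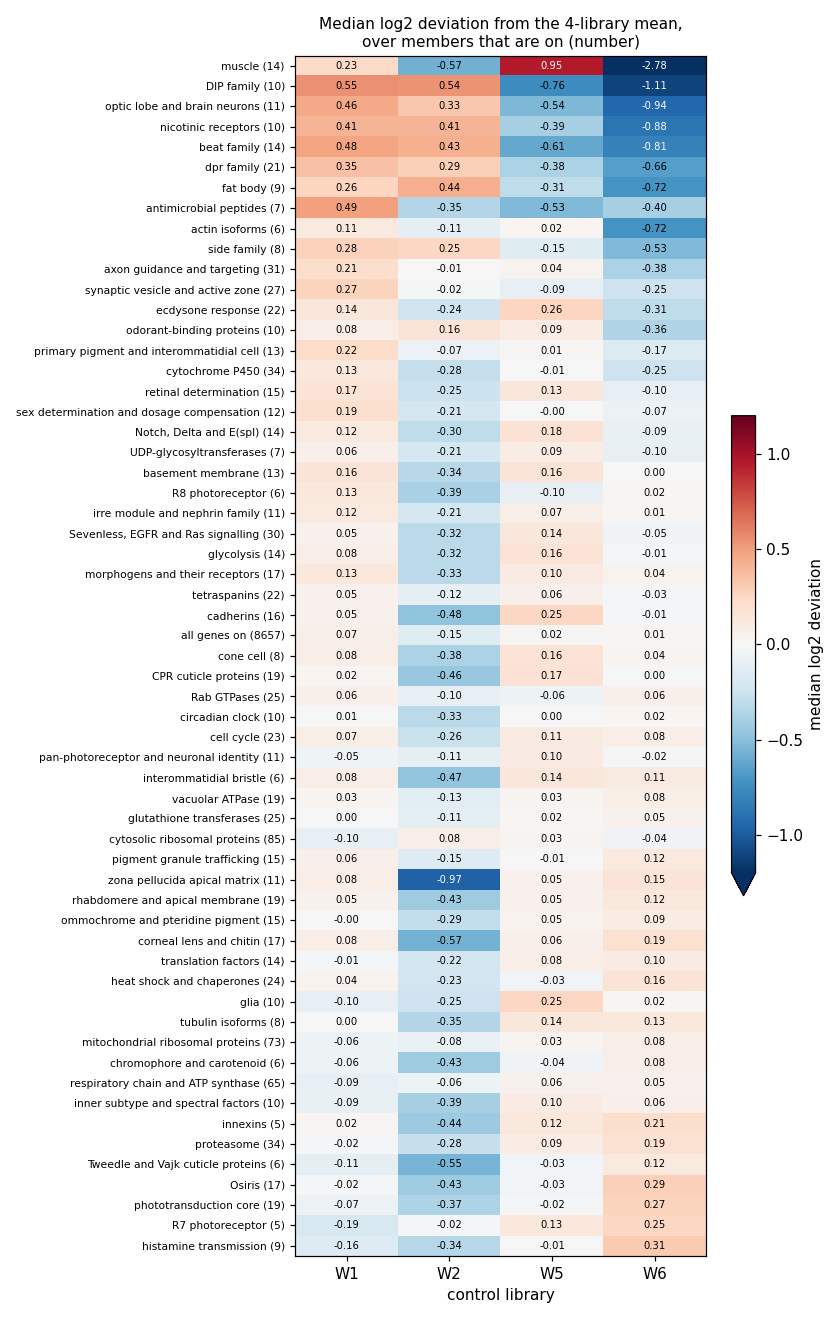
Median log2 deviation of each control library from the 4-library mean, over the members of each list that are on (number in brackets), sorted by W6 minus W1. Muscle genes run from 0.95 (W5) to -2.78 (W6), and synaptic partner families are higher in W1 and W2 than in W5 and W6.

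The libraries also differed by gene length. Among genes with a mean level of at least 10, those of up to 700 exonic bases lay 0.17 above the 4-library mean in W2 on a log2 scale, and those over 4000 bases lay at -0.22. In W6 the same classes lay at -0.11 and -0.08, and the class over 1500 and up to 2500 bases was highest at 0.08. In W1 the trend was the other way, from -0.07 to 0.14. Without the ribosomal protein genes the shortest class in W2 had the same value, 0.17. The W2 levels given above for short genes such as RpL41, and for long ones such as tyn, carry this difference between libraries, and its part in them was not tested.

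The phototransduction list did not order the libraries as the fat body, muscle and brain neuron lists did. The photoreceptor and neuronal identity list and the glia list did share an order by median log2 deviation, with W5 highest, then W6, W1 and W2. For the phototransduction genes that were on, the median log2 deviation from the 4-library mean was -0.07 (W1), -0.37 (W2), -0.02 (W5) and 0.27 (W6). For the fat body genes it was 0.26, 0.44, -0.31 and -0.72 in the same order of libraries. W6 thus had the highest phototransduction median and the lowest medians of fat body, muscle and brain neuron markers. For cytosolic ribosomal protein genes the medians stayed between -0.10 and 0.08, and for mitochondrial ones between -0.08 and 0.08. What part the other cells have in the spread of the photoreceptor genes was not tested.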

How the data were processed

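Polyadenylated RNA of pooled pupal retinas was sequenced as paired ends, per the labels' protocols. The tools were DESeq2 1.32.0, RSEM 1.2.31, HISAT2 2.0.3, cutadapt 1.9.1 and FastQC 0.11.4, and the builds dm6 and BDGP6, per the submitters' processing notes. No source used here gives the strand of counting. The deposited signal values are normalized counts, which the authors made by dividing gene counts by 1 size factor for each library. In each of the 4 control columns, all values above 0 came out as whole reads within a tolerance of 0.05 reads, which gave the read totals. The 4 columns of the other genotype were not used. The libraries of each of the 6 pairs differed by far more than counting noise (chi-square per degree of freedom 46.0 to 108).

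Of 15127 gene IDs, 14898 were found in the annotation used, a further 210 were matched by position (reciprocal overlap 0.9) and 19 were not matched and have no level. Each normalized count was divided by the length of the union of the gene's exons and scaled to 1000000 over 15064 protein-coding, noncoding RNA and pseudogene entries of 200 bases or more, without ribosomal RNA. Fragment length was not corrected for. Log2 deviations add an offset of 0.1 to each level. Python 3.11.15, numpy 2.4.6, pandas 2.3.3, scipy 1.17.1 and matplotlib 3.10.9 were used, and the steps were tested on simulated data. Count intervals are exact Poisson intervals at 95%, floors are 3 reads, and both cover counting error only.

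The members and the gene lists were chosen with earlier results of these data known. Of 673 entries in 45 lists, 10 were not found and are not analysed here. Name patterns of the 30 families were corrected by gene identity after values were seen, and the pairs set side by side were chosen with values seen. Genes were named by a rule: all members of the cell type, opsin and phototransduction lists, the 20 highest genes by share and by level, the 4 highest and 3 lowest of other lists, the 12 most variable genes and the highest noncoding RNA genes. Other named genes were chosen after their values were seen. Alternatives changed the gene length, the genes in the total, the threshold, the mean, the CV minimum, the ribosomal RNA share, the scaling and the libraries.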

Additional observations from a re-analysis of the deposited data

Results flagged for a closer look

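In groups of 4 libraries, a value stands apart here when the gap to its nearest neighbour as a share of the whole range exceeds Dixon's 95% critical value, which chance gives in about 1 of 20 groups. Of 326 values examined, 40 stood apart (12.3%), and the values are not independent, since all come from the same 4 libraries. They include the genes named for the highest CV between these libraries. A gene with reads in a single library always stands apart by this rule. The share therefore cannot be set against 1 in 20. W1 stood apart on the high side in the per-length level of betaTub85D (4.41, against 2.05 to 2.16 in the others), Dark (39.2, against 23.6 to 26.2 in the others), Cals (208, against 153 to 159 in the others) and toy (80.8, against 61.4 to 62.5 in the others). W1 was also apart on that side in the per-length level of Klp61F (0.426, against 0.200 to 0.234 in the others), frm (6.15, against 0 to 0.242 in the others) and CG4757 (11.9, against 0.144 to 1.54 in the others). W2 stood apart on the high side in the per-length level of RpL41 (38609.9, against 12498 to 16118 in the others), Kr-h1 (0.187, against 0 to 0.0285 in the others), Hml (1.98, against 0.836 to 0.974 in the others) and PPO1 (13.6, against 0 to 0.518 in the others). W2 was also apart on that side in the per-length level of PPO2 (17.0, against 0 to 0.339 in the others) and lncRNA:CR43264 (710.2, against 268 to 333 in the others). W2 stood apart on the low side in the per-length level of f (30.2, against 47.0 to 48.8 in the others), rdgA (28.1, against 43.1 to 44.3 in the others), E(spl)m2-BFM (23.8, against 29.7 to 30.9 in the others) and Stat92E (55.1, against 76.8 to 78.0 in the others). W2 was also apart on that side in the per-length level of ImpE1 (81.5, against 173 to 189.5 in the others), Top2 (38.5, against 53.2 to 55.0 in the others) and Gapdh2 (252, against 364 to 374 in the others). W5 stood apart on the high side in the per-length level of Act88F (1089.5, against 4.05 to 133 in the others), futsch (93.3, against 34.9 to 44.7 in the others), Pdh (0.982, against 0 to 0.160 in the others) and Clk (4.76, against 0 to 0.633 in the others). W5 was also apart on that side in the per-length level of cry (161, against 26.8 to 48.5 in the others), spok (59.2, against 0 to 1.72 in the others), Hr38 (8.94, against 0.0484 to 0.742 in the others) and CG4631 (9.68, against 0 to 1.02 in the others). W5 was also apart on that side in the per-length level of SmydA-5 (21.3, against 1.53 to 2.37 in the others). W6 stood apart on the high side in the per-length level of CarT (39.8, against 27.4 to 28.7 in the others). Reads in a single library alone set apart the level of RpS10a (0.768 in W5), RpS19b (0.681 in W6), gammaTub37C (0.0764 in W2) and Osi15 (0.202 in W2). The same held for Chs2 (0.0276 in W2), zye (0.0220 in W5), E(spl)m6-BFM (0.547 in W2) and cid (0.894 in W6). The same held for pre-mod(mdg4)-B (12.6 in W1). The share of reads in cytosolic ribosomal protein genes stood apart in W2, at 13.8% against 9.70% to 10.1% in the others. The causes of these differences were not tested.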

How the results depend on the processing

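Counts of genes on kept within 1.5 times under each alternative: 8657 became 8652 with the longest transcript as length, 8667 with all genes in the total, 8974 and 7512 at thresholds of 0.5 and 5, and 9434 when the mean alone had to reach 1. Genes off ran from 4018 to 6558 at the same thresholds. At a threshold of 5 no measured opsin gene was on (0, against 2), while 18 phototransduction genes, 27 synaptic genes and 0 Hox genes were. Without ribosomal RNA genes the top 100 genes held 23.0% of the reads. The median CV was 18.9% with a minimum mean of 5 and 24.1% with none. Leaving out 1 library at a time gave 14.3 to 16.6% for the median CV, 8706 to 8804 genes on, 4864 to 5079 off, 1274 to 1429 at 100 or more, 23.5 to 24.0% of reads in the top 100 genes and 9.85 to 11.2% in cytosolic ribosomal protein genes. The lowest CV came without W2. Of 315 genes with values in the text, 32 moved by over 1.5 times when 1 library was left out, and 5 with the longest transcript as length: Fas3 (to 338), ttk (to 153), Eip75B (to 284), br (to 1.93) and hth (to 34.01). With 1 library left out sc fell to 0.395 (W2), Rdh to 0.303 (W5), Scr to 0.0989 (W2), aurB to 0.245 (W5), E(spl)m8-HLH to 0.0671 (W6), dysf to 0.0588 (W2), Mlc2 to 60.1 (W5) and alphaTub67C to 0.156 (W2). No paired analysis was possible because no groups are compared and the column names carry no replicate number of the labels. Depth limits the low end: a floor of 3 reads stands for a level of 0.0775 for Rh4.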

Other observations

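Noncoding RNA genes beyond the highest one were few but some were abundant. The gene lncRNA:CR42491 had a per-length level of 409 ± 35.1 and lncRNA:CR43264 401 ± 208. Both annotated copies of the 7SL RNA, the RNA of the signal recognition particle, had the same value, 277 ± 79.9, and as copies of 1 RNA their levels are uncertain. Genes named by number alone also ranked high. CG14107 stood at 5250.1 (W1), 5079 (W2), 5584 (W5) and 6229 (W6), CG13023 at 4406 (W1), 2259.6 (W2), 4811 (W5) and 3826 (W6) and CG32354 at 3298 (W1), 2254 (W2), 3545 (W5) and 5008 (W6). The histone gene His4r, which lies outside the histone repeats and carries a polyadenylated message, was at 4751 (W1), 7348 (W2), 3998 (W5) and 3393 (W6). The iron transport gene Tsf1 (transferrin) stood at 2195 (W1), 1422 (W2), 2307 (W5) and 2977 (W6). Of 16 larval glue and ecdysone-induced Eig71E genes 4 were on, led by Eig71Ej (25.4 ± 18.4, or 16.6 without W2). Yolk protein genes Yp3 (4.83 ± 2.95) and Yp2 (1.18 ± 0.830) were the highest of the yolk, chorion and vitelline membrane list.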
